A study of Arabidopsis thaliana with 6 samples.

Results

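Ribosomal protein genes are described here across 3 maps of EBS (EARLY BOLTING IN SHORT DAYS) on Arabidopsis chromatin. A gene was a member when its symbol or a synonym in the gene table was RPL or RPS followed by a number and it encodes a ribosomal protein. Of 59 nuclear protein-coding genes with such a name, 6 were left out because the table names them as disease resistance genes or likens them to one (RPS2, RPS4, RPS6 and RPM1 among them, where RPS stands for resistance to Pseudomonas syringae). This gave 53 members among 27444 nuclear protein-coding genes. The members were 33 cytosolic, 13 plastid and 4 mitochondrial genes, and 3 left without a compartment (AT1G77750, listed as RPS13, and RPS15AB and RPS15AE). The table's names state the compartment for 7 cytosolic, 6 plastid and 1 mitochondrial genes, and general knowledge gave it for the rest. Many more ribosomal protein genes carry no such name in the table, so the members are a named part of the family.

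The ChIP-seq study used whole Col-0 seedlings of about 10 days, grown on plates with 16 h of light and 8 h of dark. All samples came from the ebs shl mutant, mutated in EBS and its relative SHL, carrying a FLAG-tagged EBS gene under its native promoter. The 6 samples were 3 chromatin samples precipitated with an anti-FLAG antibody, which gave 1 peak list each, and 3 of input DNA, which entered no value below. No precipitate from plants without the tag was among them, so a peak can be EBS or recurrent background, and the 2 cannot be told apart here. Whether the replicates were grown separately is not stated in the labels, and their spread may be technical only.

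Each peak carries the authors' score, a larger value standing for stronger evidence in their peak caller, and depth is unknown. The lists held 5237, 4216 and 3661 nuclear peaks in replicates 1, 2 and 3. Their median scores were 33.4, 42.7 and 102 in the same order. In each list the lowest score was 20 when rounded to a whole number, so peaks with scores in the low 20s lie near the floor. A score of at least 100 is called strong below and was reached by 27.5%, 32.0% and 50.4% of the peaks, so a strong peak does not mean the same rank in every list.

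A ribosome is built from a large and a small subunit, each made of ribosomal RNA and many proteins. Plant cells hold 3 kinds, in the cytosol, the plastid and the mitochondrion. Proteins named RPL belong to the large subunit and those named RPS to the small one. Cytosolic ribosomal proteins are encoded by small families of near-identical paralogs that are highly expressed in dividing tissue, whereas most nuclear genes for plastid ribosomal proteins are single copies of bacterial type. EBS is a chromatin protein with a BAH domain and a PHD finger that reads methylated lysines of histone H3 and delays flowering.

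Most of these named ribosomal protein genes had no EBS peak, and the same held for all protein-coding genes (18751 of 27444). A gene counted as bound in a replicate when a peak of that list overlapped its body or the 1000 bp on either side. By this rule 35 of the 53 members had no peak in any list, and 18 (34%) had one in at least 1 list, where 31.7% of all protein-coding genes did. In all 3 lists, 3 members (5.66%) were bound, against 6.09% of all genes: RPS13A, RPL12-B and RPL12-C. In replicates 1, 2 and 3 the bound members numbered 14, 8 and 5, which is 26.4%, 15.1% and 9.43% of them. The shares of all genes were 20.8%, 17.1% and 11.7%. Over the replicates the members' share was 17% ± 8.65 (SD, n = 3) and that of all genes 16.6% ± 4.57 (SD, n = 3), a difference smaller than the spread between replicates. No test was made of this or any other share, since genes are not replicates and the series has a single group of ChIP samples.

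Plastid genes were bound more often than cytosolic ones in each list. Of the 33 cytosolic genes, 6, 4 and 2 were bound in replicates 1, 2 and 3 (18.2%, 12.1% and 6.06%), each below the share of all genes in that list. Their mean was 12.1% ± 6.06 (SD, n = 3), within 1 SD of the 16.6% of all genes. Of the 13 plastid genes, 6, 4 and 3 were bound (46.2%, 30.8% and 23.1%), each above the share of all genes, with a mean of 33.3% ± 11.8 (SD, n = 3), more than 1 SD above that of all genes. Both SDs include the fall in the share of all genes from replicate 1 to replicate 3. Within replicates 1, 2 and 3, cytosolic genes differed from all genes by -2.63, -5.02 and -5.68 points. Plastid genes differed by 25.3, 13.6 and 11.3 points. A single gene moves the plastid share by 7.69 points and the cytosolic share by 3.03 points. The 3 neighbouring RPL12 genes made up 3, 2 and 3 of these bound plastid genes. Without them, 3, 2 and 0 of 10 plastid genes were bound (30%, 20% and 0%), with a mean of 16.7% ± 15.3 (SD, n = 3), about that of all genes. With the compartments that the table states alone, the means were 16.7% for 6 plastid and 14.3% for 7 cytosolic genes.

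**Figure D1:**
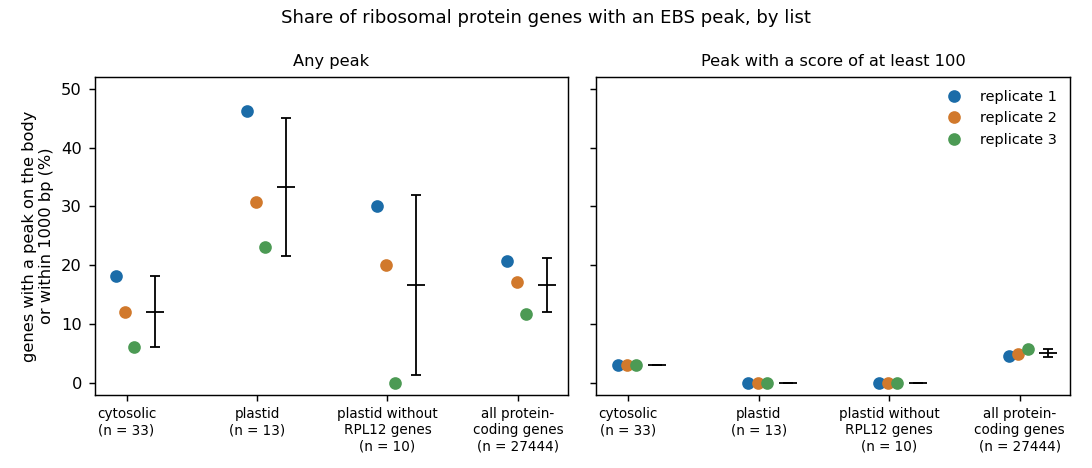
Percentage of genes with a peak on the body or within 1000 bp, for any peak (left) and for peaks with a score of at least 100 (right). Each coloured point is 1 of the 3 lists and the black mark with bars is their mean ± SD. Plastid genes lie above all genes in every list, at 46.2%, 30.8% and 23.1%. Without the RPL12 genes they do so in replicates 1 and 2 alone (30%, 20% and 0%). No plastid gene has a strong peak. At the share of all genes, 0.591, 0.644 and 0.757 of the 13 would have one in replicates 1, 2 and 3.

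Bound members other than RPS13A had only weak peaks. A strong peak was counted for 1 of the 53 members in every list, RPS13A (1.89%), where 4.55%, 4.96% and 5.83% of all genes had one in replicates 1, 2 and 3. At those shares 2.41, 2.63 and 3.09 of the 53 members would have one, so the difference is a few genes. Only weak peaks were counted for 13, 7 and 4 members (24.5%, 13.2% and 7.55%), against 16.3%, 12.2% and 5.91% of all genes. By compartment, only weak peaks were found at 5, 3 and 1 cytosolic genes and at 6, 4 and 3 plastid genes. In all there were 28 pairs of a member and a peak, from 25 distinct peaks. Pooled over the 3 lists, their median score was 31.3, and their median rank within their own list was the 42.6th percentile. The lowest score was 20.9, at RPS15 in replicate 1, near the floor of that list and at its 6.28th percentile. The highest weak score was 93.9, at RPL12-C in replicate 3, just under the limit of 100, and the lowest strong score was 1108, at RPS13A in replicate 3.

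**Figure D2:**
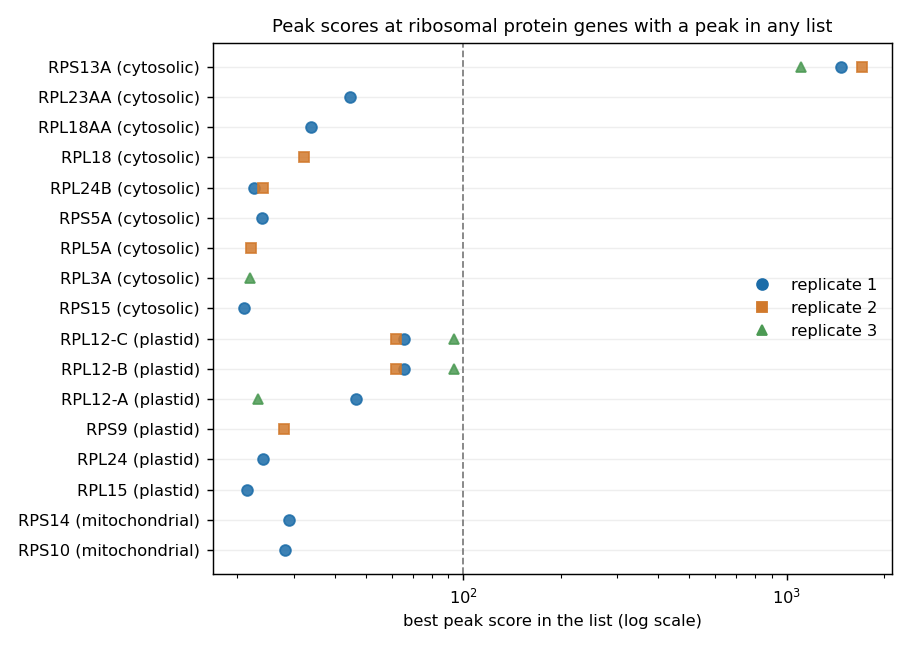
Best peak score (log scale) in each list at members with a peak in any list (1 not shown), ordered by compartment, with a dashed line at a score of 100. RPS13A alone lies above the line, with scores from 1108 to 1706, and genes with a peak in 1 list alone have scores from 20.9 to 44.5.

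RPS13A (AT4G00100), also called POINTED FIRST LEAF 2, encodes a small subunit protein of the cytosolic ribosome, and its mutants have narrow first leaves. The score counted for it was 1473 in replicate 1, 1706 in replicate 2 and 1108 in replicate 3, all above the 91st percentile of their lists. Those peaks lay almost wholly outside RPS13A. In replicate 1 the peak ran on chromosome 4 from 38336 to 40578 (TAIR10) and shared 49 bp with the gene, 3.34% of its length. In replicate 2 it ran from 38348 to 41411 and shared 37 bp. In replicate 3 it ran from 39379 to 40363 and ended 995 bp short of RPS13A, just inside the 1000 bp limit. All 3 covered mainly the neighbour GAE3 (AT4G00110), which encodes a UDP-glucuronate epimerase of pectin synthesis, by 1819, 1819 and 920 bp. With each peak counted only for the gene whose body and flank it overlapped most, RPS13A was bound in no list.

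RPL12-A, RPL12-B and RPL12-C (AT3G27830, AT3G27840 and AT3G27850) encode the plastid form of L12, the protein of the flexible stalk of the large subunit that works with elongation factors. They lie close together on chromosome 3 and are the only family with more than 1 plastid member. RPL12-C had a peak on its body in every list, with scores of 65.6, 62.0 and 93.9 in replicates 1, 2 and 3, at the 67.2th, 59.5th and 48.2th percentile of each list. The peaks spanned 10324728 to 10326051, 10324154 to 10326307 and 10324884 to 10325356, and covered 100%, 100% and 49.3% of the gene. The 473 bp of the replicate 3 peak lay inside both of the others, so all 3 lists marked the same stretch. RPL12-B was counted through these same peaks, which lay 778, 204 and 934 bp outside it. RPL12-A had peaks of its own in replicate 1 (10318218 to 10318978, score 46.6) and replicate 3 (10318365 to 10319221, score 23.2), which shared 614 bp, and no peak within 1000 bp in replicate 2. The family therefore holds 2 bound loci rather than 3. RPL12-A overlaps another annotated gene, AT3G27831, which neither of the RPL12-A peaks touches. Other neighbours were touched. The replicate 1 peak at RPL12-A covered the tRNA gene AT3G27825. The RPL12-C peaks of replicates 1 and 2 ran onto AT3G27860, and that of replicate 2 also covered the tRNA gene AT3G27845. The paralogs are similar in sequence, and how reads that match more than one of them were placed is not given in the sources used here.

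**Figure D3:**
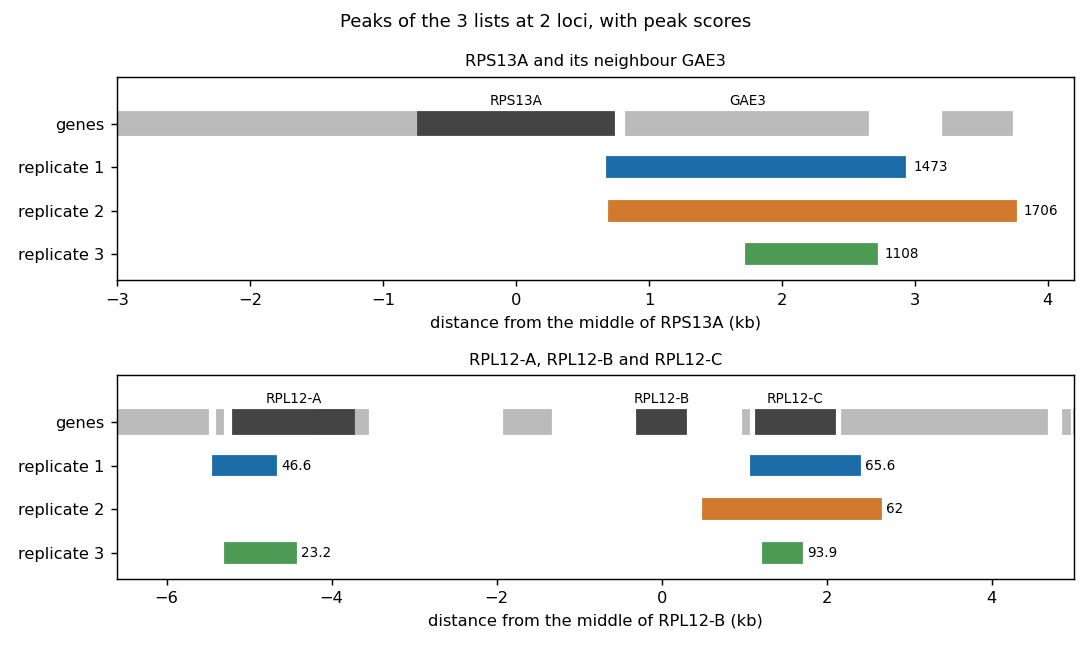
Genes (dark for members, grey for others) and peaks of the 3 lists around RPS13A (top) and RPL12-B (bottom), with distance from the middle of the named gene in kb and peak scores printed beside each bar. The strong peaks at RPS13A lie on GAE3, and the RPL12-B body is free of peaks while RPL12-C is covered in every list.

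Among the other plastid genes, none had peaks in all 3 lists. RPS9 had a peak in replicate 2 alone (score 27.9), with 58.2% of its body covered. RPL15 (score 21.4) and RPL24 (score 24.0) had one in replicate 1 alone, and the peak at RPL24 lay mainly on its neighbour CRLK1. RPS1, RPL3P, RPL4, RPL9, RPL21C and RPL27 had none. Plastid RPS1 is the largest protein of its small subunit and helps bind messenger RNA, and its nearest peak was 17.9, 25.4 and 24.2 kb away in replicates 1, 2 and 3.

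By subunit, 3, 3 and 1 of 20 cytosolic large subunit genes (15%, 15% and 5.0%) were bound in replicates 1, 2 and 3. All genes stood at 20.8%, 17.1% and 11.7%. The small subunit had 3, 1 and 1 of 13 (23.1%, 7.69% and 7.69%). For the plastid the numbers were 5, 2 and 3 of 10 large subunit genes and 1, 2 and 0 of 3 small subunit genes. In neither compartment did the share of 1 subunit exceed that of the other in every list.

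All peaks counted for cytosolic large subunit genes were weak. At the share of all genes, 0.909, 0.991 and 1.17 of these 20 genes would have a strong peak in replicates 1, 2 and 3. RPL24B (AT3G53020), known as SHORT VALVE1 for its gynoecium defect and for aiding translation re-initiation, had a peak on its body in replicate 1 (score 22.5, 34.9% of the gene) and another in its flank in replicate 2 (score 24.1). These lay 959 bp apart and so marked different places. RPL5A (AT3G25520), a binding partner of 5S ribosomal RNA whose loss alters leaf polarity, had a peak in replicate 2 alone (score 21.98), which covered 7.67% of it and lay mainly on AT3G25510. Its paralog RPL5B had none. RPL3A, which helps form the peptidyl transferase centre, had a peak in replicate 3 alone, 30 bp outside the gene (score 21.9), and RPL3B had none.

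RPL10A, RPL10B and RPL10C, whose protein is known from subunit joining and from antiviral signalling, had no peak in any list. The nearest peaks to RPL10B lay 6584, 6482 and 6480 bp away in replicates 1, 2 and 3, while those to RPL10C were 32.1, 26.2 and 65.7 kb away. RPL23AA, whose protein lies at the exit of the nascent chain, had 2 peaks in replicate 1, one on 11.8% of its body (score 26.1) and one 1 bp outside and mainly on the neighbour PnsL1 (score 44.5), and none in the others. Its paralog RPL23AB had none. RPL18 had a peak in replicate 2 alone (score 32.1, 34% of the gene). RPL18AA had one 138 bp outside in replicate 1 alone (score 33.8). RPL16A, RPL16B, RPL24A, RPL27AB, RPL34, RPL36aA, RPL36aB and RPL40A had none.

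Cytosolic small subunit genes were bound by weak peaks in replicate 1 alone, RPS13A apart. RPS5A (AT3G11940), whose promoter is widely used to drive genes in dividing cells, had a peak over 28.0% of its body (score 23.9). RPS15 had one 196 bp outside it (score 20.9), on the neighbour MPI7. No peak was found at the RPS5A paralog RPS5B, at RPS6A or RPS6B, whose protein is phosphorylated downstream of the TOR kinase, or at RPS18A and RPS18C, the first of which is POINTED FIRST LEAF. RPS10B, RPS15AA, RPS15AD and RPS28 had none either.

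RPS28 lay just outside the limit of 1000 bp, with a replicate 2 peak 1034 bp away that had a score of 20.6. The peaks counted from farthest inside the limit were those of RPS13A (995 bp) and RPL12-B (934 bp) in replicate 3.

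Of 11 cytosolic families with more than 1 member (23 genes), 6 had no bound member in any list and 5 had exactly 1, RPL3, RPL5, RPL23A and RPL24 among them. In none was every member bound, from which nothing is read, since 27.3% of cytosolic genes and 31.7% of all genes were bound in any list. Of the 10 cytosolic proteins with a single member here, 4 were bound in at least 1 list (RPL18, RPL18AA, RPS13A and RPS15). Among all cytosolic genes, 24 were bound in no list, 7 in 1 list, 1 in 2 lists and 1 in all 3.

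Peaks on the gene body were fewer. The body of 11, 6 and 2 members carried a peak (20.8%, 11.3% and 3.77%), against 14.3%, 12.2% and 7.36% of all genes in replicates 1, 2 and 3. For cytosolic genes these were 4, 3 and 0 of 33, and for plastid genes 5, 3 and 2 of 13. A peak is said to lie mainly on the gene whose body it shares most bases with. Of 13 pairs of a cytosolic gene and a peak, 4 lay mainly on the ribosomal protein gene and 9 lay mainly elsewhere. Of 13 plastid pairs, 8 lay mainly on it. Where a peak touched the body, it covered a median of 11.8% of the cytosolic gene and 55.2% of the plastid gene. The pairs pool the 3 lists, so a locus can be counted more than once. RPS13A gave 3 of the 9 cytosolic pairs mainly elsewhere, and RPL12-A, RPL12-B and RPL12-C gave 2, 3 and 3 of the plastid pairs. No such values were computed for all genes, so no trait of a compartment is read from them.

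Gene length differed little between members with and without a peak, with medians of 1587 bp and 1591 bp, against 2078 bp for all protein-coding genes. Among the 10354 protein-coding genes from 1115 to 2290 bp, the 10th to 90th percentile of the members' lengths, 21.8%, 18.4% and 12.1% were bound in replicates 1, 2 and 3. The cytosolic shares lay below these values and the plastid shares above them in each list, as with all genes.

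The distance to the nearest peak, which uses no limit, was shorter for plastid than for cytosolic genes in each list. Its median was 6.58, 13.0 and 12.2 kb for cytosolic genes and 1.38, 7.27 and 11.0 kb for plastid genes in replicates 1, 2 and 3. All protein-coding genes had medians of 6.9, 9.4 and 14.0 kb, so cytosolic genes were farther from a peak than these in replicate 2 alone. Without the RPL12 genes the plastid medians were 7.55, 11.8 and 16.9 kb, each above that of all genes. They were then longer than the cytosolic medians in replicates 1 and 3 and shorter in replicate 2 alone.

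**Figure D4:**
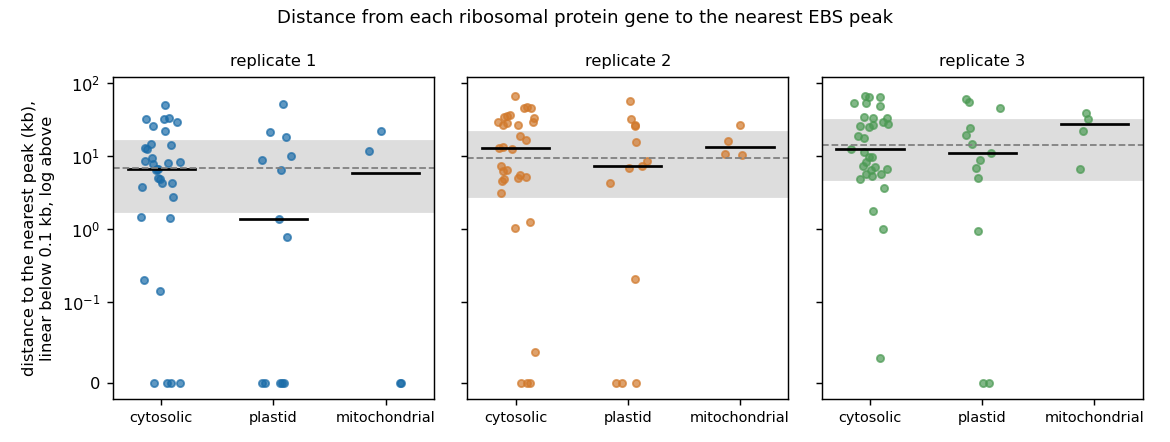
Distance from each member to the nearest peak of a list, with 1 point per gene and a black line at the median of each compartment, on an axis that is linear near 0 and log above. The grey band and dashed line are the quartiles and median of all protein-coding genes, 6.9, 9.4 and 14.0 kb in replicates 1, 2 and 3. Cytosolic medians lie inside the band in each list, and the plastid median of replicate 1 (1.38 kb) lies below it.

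Of the 4 mitochondrial genes, RPS14 (score 29.0) and RPS10 (score 28.1) had a peak on the body in replicate 1 alone, over 31.3% and 50.4% of the gene. RPS19 and the mitochondrial RPS2 (AT3G03600) had none, nor had the 3 genes of no given compartment. In replicate 1, 14.3% of all genes had a peak on the body, and at that share 0.57 of the 4 would have one. At the shares of all genes, 0.624, 0.514 and 0.352 of the 3 would be bound in replicates 1, 2 and 3. With so few genes, nothing is read from either count.

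Ribosomal protein genes that the table names in another way numbered 17. Of 11 plastid ones, 2, 3 and 2 were bound in replicates 1, 2 and 3 (18.2%, 27.3% and 18.2%), against 20.8%, 17.1% and 11.7% of all genes. None was bound in all lists, where 6.09% of all genes were. PRPL11 and PRPS20, the plastid forms of L11 and S20, had no peak. PRPL1, a protein of the large subunit, had the only strong peak among them, in replicate 3 alone (chromosome 3, 23443985 to 23444959, score 124). MRPL11 (AT4G35490), which encodes mitochondrial L11, had strong peaks on its body in all 3 lists, with scores of 615, 234 and 1154 (chromosome 4, 16855498 to 16856389, 16855553 to 16857267 and 16855421 to 16856525). Each lay mainly on MRPL11, unlike the peaks at RPS13A. Of the 17 genes, 1 (MRPL11) was bound in all lists, where 6.09% of all genes were. Strong peaks in all lists were found at 3.36% of all genes. Among 4 cytosolic ones, RPSAb had a peak in replicate 1 alone (score 38.4), and P40, BBC1 and RS27A had none.

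Of 20 other genes of ribosome assembly, translation and its control, 2, 2 and 4 were bound in replicates 1, 2 and 3 (10.0%, 10.0% and 20%), against 20.8%, 17.1% and 11.7% of all genes. Another 4 listed loci carry no such name in the table and were left out. With them, 4, 4 and 5 of 24 were bound (16.7%, 16.7% and 20.8%), and AT1G07940 had strong peaks in all 3 lists (scores 1576, 1678 and 849), each outside its body and mainly on AT1G07950. FIB2 (AT4G25630), which encodes the nucleolar RNA methyltransferase fibrillarin, was bound in all 3 lists, with scores of 405, 544 and 651 on chromosome 4 (13073434 to 13075216, 13073725 to 13075361 and 13074367 to 13075229), each mainly on FIB2. Its paralog FIB1 had no peak. Of the 20 genes, 1 (FIB2) was bound in all lists, where 6.09% of all genes were. REIL1, a factor of late large subunit maturation, had a strong peak 287 bp outside it in replicate 3 alone (score 352). LARP1A, REIL2, APUM23 and TCP20 had 1 weak peak each, in replicate 3, 3, 2 and 1. The nucleolin genes NUC1 and NUC2, the RACK1 genes, TOR and its kinases S6K1 and S6K2 were among the 14 with none.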

How the data were processed

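The authors worked on TAIR10 with MACS 1.4, SAMtools 1.3 and Bowtie2 2.2.8, per the submitters' processing notes. The threshold and how input entered were not given in the sources used here. Peaks were deposited separately for each ChIP sample, every peak with a score, used only within its list. Organelle peaks were left out.

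Genes came from a RefSeq table of TAIR10.1, without strand, exons or sequence. Its coordinates are not printed and were taken to share the TAIR10 frame, which was not tested. Compartments came from the table's names for 7 cytosolic, 6 plastid and 1 mitochondrial genes, otherwise from general knowledge. Overlap needed at least 1 bp. Percentiles count the nuclear peaks of the list with a lower score, ties shared, and for this ranking alone scores above 3100 were set to 3100. The code (Python 3.11.15, pandas 2.3.3) was tested on simulated lists.

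Members and lists were chosen with earlier results of these data known. Members were named when bound in all lists, when strong in any, by known role, or where every paralog was bound. Pathway genes came from a list. Other genes, MRPL11 and PRPL1 included, were named after their values were seen. RPL4A, RPL4D, RPS18B and RPL27AC were in the rule but matched no member by name. Some genes are counted but not reported here by name. Of 24 pathway loci, 4 that the table does not name were left out, and counted in an alternative chosen after seeing the data. Promoter motifs were not analysed here.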

Additional observations from a re-analysis of the deposited data

How the results depend on the processing

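Depth is unknown, lists of 13 and 33 genes move in steps of 7.69 and 3.03 points, and no result has a test. The main values were 12.1% of cytosolic, 33.3% of plastid and 16.6% of all genes bound (means over replicates), 1 cytosolic and 2 plastid genes bound in all lists, and 3.03% and 0% with a strong peak. With a score of at least 100, the bound shares were 3.03%, 0% and 5.11%, and 0 plastid genes were bound in all lists. With strong peaks from a score of 50, 17.9% of plastid genes had one. With the gene body only, cytosolic genes were at 7.07%, all genes at 11.3%, cytosolic strong peaks at 2.02%, and 0 cytosolic and 1 plastid genes were bound in all lists. These counts of 0 and 1 and the 2.02% were also found with a flank of 500 bp and with an overlap of at least 200 bp. With each peak counted for 1 gene, cytosolic genes were at 6.06%, plastid genes at 15.4%, all genes at 10.8% and cytosolic strong peaks at 0%, and 0 cytosolic and 1 plastid genes were bound in all lists. Cytosolic strong peaks were 4.35% with current symbols only and 2.78% with the 3 genes of no given compartment added. With all genes that the table's names mark as ribosomal proteins (37 cytosolic and 24 plastid), they were 2.7%, and plastid strong peaks 1.39%. That set is still a named part of the family. Leaving out each replicate gave 1 to 2 cytosolic genes in all remaining lists, 2 without replicate 3.

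Chosen after seeing the data, leaving out the RPL12 genes put plastid genes at 16.7% with 0 in all lists, and leaving out RPS13A put cytosolic strong peaks at 0% with 0 in all lists. With compartments stated in the table alone, plastid genes were at 16.7% and 0 in all lists, and cytosolic genes at 14.3%, 0% strong and 0 in all lists. In every setting run, the plastid mean was above the cytosolic mean except with a score of at least 100. These settings count the same 3 lists again, so they add no independent evidence for this order. Without the RPL12 genes the plastid mean was 16.7% ± 15.3 (SD, n = 3), against 12.1% for cytosolic genes. In replicate 3 alone these shares were 0% and 6.06%.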

Other observations

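Ribosomal protein genes of the chloroplast genome itself were outside the comparisons. Peaks covered 84.4, 84.4 and 84.2 kb of that genome in replicates 1, 2 and 3, as 1, 1 and 2 unbroken peaks from its first base. Of 25 listed rps and rpl gene copies there, 18 lay under a peak in each list. The last listed gene ends at base 154312, and the share of all chloroplast genes under a peak is not given here. Nearly the same stretch was called in each list, so the repeated count is no trait of these genes. The score was 67.1 in replicate 1, 3228 in replicate 2 and 3100 for both peaks of replicate 3. Peaks of this length describe a stretch of the organelle genome and no single gene.

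The 6 disease resistance genes that share the RPS name pattern or are likened to it had a peak in 1, 1 and 0 cases in replicates 1, 2 and 3 (16.7%, 16.7% and 0%), against 20.8%, 17.1% and 11.7% of all genes. RPM1, a receptor of bacterial effectors, had one in replicate 1 alone (score 54.2), RPS6 one in replicate 2 alone (score 30.9), and the other 4 had none.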
